A study of Mus musculus with 14 samples.

Results

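The Hoxb cluster was described here as the 1000 consecutive 200-bp bins of chr11:96040001-96240000 in the mouse build mm9, a region of 200 kb that runs from Hoxb13 to Hoxb1. A bin was a member by its position alone, and 838 of the 1000 bins held CpG counts in at least 1 library, out of 7282466 such bins over the whole genome. The counts came from ChIP-BS-seq, in which nucleosomes cut with MNase were precipitated with an antibody to H3K4me1 or H3K27ac and the DNA was then bisulfite-converted, so that each CpG of the precipitated DNA was read as methylated (5mC) or unmethylated. All cells were the R1 line of mouse embryonic stem cells (ESCs), kept in medium with LIF and 2i (the MEK inhibitor PD0325901 and the GSK3 inhibitor CHIR99021), with no allele or transgene given in the labels. ESCs were grown for 2 days in ESC medium without 2i, RA cells for 4 days without LIF in 1 µM retinoic acid, and XEN cells, a culture directed to extraembryonic endoderm, for 9 days in 0.1 µM retinoic acid with 10 ng/mL Activin A. ESC and RA had 1 library for each mark and XEN had 2. With 1 library, differences between ESC and RA have no replicate check, and intervals cover counting error only.

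Hox genes encode homeodomain transcription factors that set position along the head-to-tail axis, and their order on the chromosome matches the order in which they are switched on. Genes at the Hoxb1 end are known to respond to retinoic acid earlier than those at the Hoxb13 end, through retinoic acid receptors bound near them. H3K4me1 marks primed and active enhancers, H3K27ac marks active enhancers and promoters, and CpG methylation is usually low where factors bind.

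In the RefSeq annotation of GRCm38.p6, the cluster held 10 protein-coding Hoxb genes and the non-coding Hoxb5os and Hoxb3os. Sorted by the lowest annotated coordinate of each gene record, the coding genes read Hoxb13, Hoxb9, Hoxb8, Hoxb7, Hoxb6, Hoxb5, Hoxb3, Hoxb4, Hoxb2 and Hoxb1. A long record can begin before its neighbour, so this sorting need not give the order of the promoters. This build differs from that of the data, so only the order was used and no gene was placed on a bin. Promoters were held in the RefSeq table for 4 of the 12 symbols, of which 3 coding genes are shown to give the density of CpGs, the base pairs that the assay reads. Each sequence is the 250 bases before the transcription start, on the plus strand of GRCm38.p6, with every CG in capitals.
Hoxb8 promoter: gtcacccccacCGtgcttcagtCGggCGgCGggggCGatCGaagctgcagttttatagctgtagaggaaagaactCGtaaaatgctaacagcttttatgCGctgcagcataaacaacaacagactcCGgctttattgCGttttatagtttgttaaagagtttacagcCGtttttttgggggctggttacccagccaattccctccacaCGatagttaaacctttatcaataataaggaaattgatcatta
Hoxb4 promoter: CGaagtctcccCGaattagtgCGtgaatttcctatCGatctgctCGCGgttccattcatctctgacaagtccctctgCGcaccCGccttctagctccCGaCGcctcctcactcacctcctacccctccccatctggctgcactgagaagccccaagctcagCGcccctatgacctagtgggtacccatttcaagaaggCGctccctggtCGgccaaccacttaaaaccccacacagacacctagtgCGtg
Hoxb1 promoter: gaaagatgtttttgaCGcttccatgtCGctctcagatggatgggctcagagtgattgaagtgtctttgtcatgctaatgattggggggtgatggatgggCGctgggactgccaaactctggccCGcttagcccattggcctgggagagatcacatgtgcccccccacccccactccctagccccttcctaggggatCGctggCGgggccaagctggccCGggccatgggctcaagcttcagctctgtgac
The Hoxb4 stretch held 14 CGs, the Hoxb8 stretch 12 and the Hoxb1 stretch 7, against a median of 6 over 32851 promoters of the same length. As many CGs or more were found in 29.4%, 33.5% and 46.3% of those promoters. AGGTCA, the motif that nuclear receptors such as the retinoic acid receptors recognise, was searched on both strands. It occurred once in reverse (TGACCT) before Hoxb4 and not in the other 2 stretches, while 14% of all promoters held it on either strand.

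Depth bore on every comparison, and the labels on those with XEN cells. Total CpG counts ran from 32305709 to 58803653 in the 4 ESC and RA libraries and from 12147115 to 31345707 in the 4 XEN libraries, whose tables list only bins with at least 4 counts. In the cluster, 793 and 763 bins were listed in the ESC and RA H3K4me1 libraries, 597 and 641 in the H3K27ac libraries, 99 and 160 in the XEN libraries labelled H3K4me1 and 371 and 415 in those labelled H3K27ac. The marks of the XEN libraries went against their labels, and the names of their deposited tables also give the marks the other way round. Genome-wide, the XEN libraries labelled H3K4me1 had 17.2% and 16.6% of their counts in RA peaks of H3K27ac alone and 6.60% and 7.53% in RA peaks of H3K4me1 alone, whereas the RA H3K4me1 library had 2.0% and 20.4%. The XEN libraries labelled H3K27ac had 2.29% and 2.42% in RA peaks of H3K27ac alone and 16.7% and 17.6% in RA peaks of H3K4me1 alone, whereas the RA H3K27ac library had 14.9% and 6.67%. XEN libraries are therefore named by their label, and each XEN comparison is given as labelled and with the marks exchanged.

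The first question was where along the cluster the marks were gained or lost on retinoic acid. H3K27ac was higher over the cluster after retinoic acid, at 157.5 CPM (here the CpG counts of a region for every 1000000 CpG counts of its library) in ESCs and 306.8 CPM in RA cells. This 1.95-fold difference (log2 0.96, 95% counting interval 0.91 to 1.01) lay outside the middle 50% of 9414 windows of 200 kb over the genome, whose log2 values had a median of -0.01 and quartiles of -0.34 and 0.32. The flanking 200 kb had log2 values of 0.08 on the Hoxb13 side and 0.39 on the Hoxb1 side. H3K4me1 was 1.20-fold lower in RA cells, at 445.8 CPM in ESCs and 370.6 in RA cells (log2 -0.27, interval -0.29 to -0.24), within the quartiles of -0.39 and 0.71 of the genome's 200-kb windows. Its flanks had log2 values of 0.01 on the Hoxb13 side and 0.80 on the Hoxb1 side.

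The change in H3K27ac was not even along the cluster. In the last 100 kb, on the Hoxb1 side, H3K27ac went from 77.4 to 247.8 CPM, 3.2-fold higher in RA cells (log2 1.68, interval 1.61 to 1.74). In the first 100 kb, on the Hoxb13 side, it went from 80.1 to 59.1 CPM, 1.36-fold lower (log2 -0.44, interval -0.53 to -0.36). The ESC library thus held nearly equal H3K27ac on both sides, and the RA library most of it on the Hoxb1 side. H3K4me1 was 1.51-fold lower on the Hoxb13 side, from 175.5 to 116.1 CPM, and 1.06-fold lower on the Hoxb1 side, from 270.3 to 254.5 CPM. With 1 library a state, neither difference between the sides has a test.

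**Figure D1:**
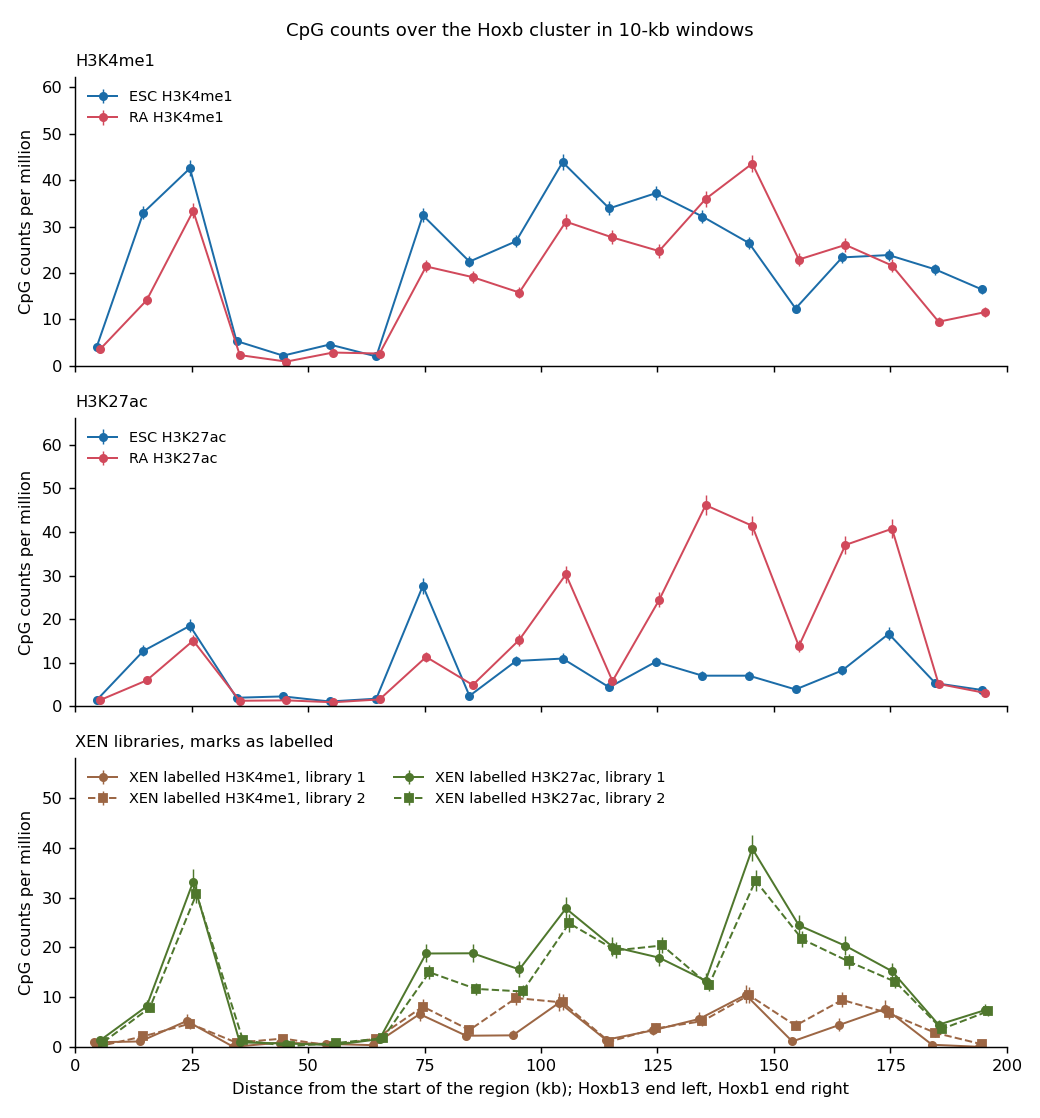
CPM in 20 windows of 10 kb, by distance from the start of the region, for H3K4me1 and H3K27ac in ESC (blue) and RA (red) and for the 4 XEN libraries under their labels; bars are 95% Poisson intervals of counting error. The RA H3K27ac library peaks at 46.2 and 41.4 CPM in the windows that start 130 and 140 kb into the region, where the ESC library holds 7.03 CPM in each.

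In 10-kb windows, H3K27ac passed a 2-fold rise in 8 of 20 windows, against 9.78% of 151966 windows over the genome, and a 2-fold fall in 2 of 20, against 11.8%. The largest gains, by the difference in CPM, were in chr11:96170001-96180000 (7.03 in ESCs and 46.2 CPM in RA cells, 6.57-fold), chr11:96180001-96190000 (7.03 and 41.4 CPM, 5.89-fold) and chr11:96200001-96210000 (8.22 and 37.0 CPM, 4.50-fold). All 3 lie in the last 70 kb of the region. The largest losses were in chr11:96110001-96120000 (27.6 and 11.3 CPM, 2.44-fold lower), chr11:96050001-96060000 (12.7 and 5.94 CPM, 2.14-fold lower) and chr11:96060001-96070000 (18.5 and 15.1 CPM, 1.23-fold lower). All 3 lie on the Hoxb13 side, and the first 2 were the windows past a 2-fold fall.

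H3K4me1 passed a 2-fold rise in 0 of 20 windows, against 22.5% of 139660 windows, and a 2-fold fall in 4, against 22.0%, shares that lie below or near the genome's. The 4 windows started 10, 30, 40 and 180 kb into the region. The largest gains of H3K4me1 were in chr11:96180001-96190000 (26.4 and 43.6 CPM, 1.65-fold), chr11:96190001-96200000 (12.3 and 22.9 CPM, 1.85-fold) and chr11:96170001-96180000 (32.2 and 35.9 CPM, 1.12-fold). The first and the last of these are also the windows of largest H3K27ac gain. The largest loss, 2.34-fold, was in chr11:96050001-96060000 (33.0 and 14.1 CPM), where H3K27ac also passed a 2-fold fall. The next were chr11:96140001-96150000 (43.9 and 31.1 CPM, 1.41-fold lower) and chr11:96160001-96170000 (37.2 and 24.7 CPM, 1.5-fold lower), where H3K27ac was 2.76-fold and 2.38-fold higher. The 4 windows of chr11:96070001-96110000 held little of either mark, at most 5.34 CPM in any ESC or RA library.

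The peaks of the cluster differed in length. Their median lengths were 4411 and 1867 bp for H3K4me1 in ESCs and RA cells and 1765 and 3054 bp for H3K27ac, against 1851, 1782, 1661 and 1785 bp over the whole lists. ESC H3K4me1 peaks covered 66.5% of the region with 29 peaks and RA H3K4me1 peaks 57.2% with 30, while H3K27ac peaks covered 10.6% in ESCs with 9 peaks and 32.5% in RA cells with 13. All 9 ESC and all 13 RA H3K27ac peaks overlapped an H3K4me1 peak of the same state, against 84.5% and 82.5% of all H3K27ac peaks of these lists. Of the 13 RA H3K27ac peaks, 8 overlapped no ESC H3K27ac peak, against 45.8% of the whole RA list. The strongest RA H3K27ac peak was also the longest, at chr11:96167144-96189477 (22333 bp, score 442.2), with a score above 98.9% of the 102600 peaks of its list. It held 14.4 CPM of H3K27ac in ESCs and 90.2 in RA cells, and no ESC H3K27ac peak overlapped it. H3K4me1 was already present there in ESCs, at 60.5 CPM, and at 80.9 CPM in RA cells.

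The RA H3K27ac peaks that ranked next were chr11:96208064-96217369 (9305 bp, score 166.9; 16.9 CPM in ESCs and 42.1 in RA cells) and chr11:96196981-96205103 (8122 bp, score 140.8; 6.32 and 29.6 CPM). The strongest RA H3K4me1 peak, chr11:96180564-96205518 (24954 bp, score 490.1), began inside the longest RA H3K27ac peak, ended just past chr11:96196981-96205103 and went from 48.0 to 81.6 CPM of H3K4me1. The next were chr11:96169071-96179857 (score 161.1) and, on the Hoxb13 side, chr11:96113527-96123679 (score 149.5). In both, H3K4me1 differed little between the states, at 32.9 and 36.6 CPM in the former and 31.7 and 26.8 CPM in the latter.

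In ESCs the leading peaks of both marks lay on the Hoxb13 side. The strongest and longest ESC H3K27ac peak was chr11:96111452-96117019 (5567 bp, score 102), with 24.9 CPM of H3K27ac in ESCs and 10.6 in RA cells. It was followed by chr11:96050416-96054608 (score 62.8; 8.16 and 1.39 CPM) and chr11:96063292-96065828 (score 39.9; 12.5 and 11.1 CPM). The second of the 3 overlapped no RA H3K27ac peak. The ESC H3K4me1 peaks of highest score were chr11:96049081-96058374 (score 216.9; 33.3 CPM of H3K4me1 in ESCs and 13.8 in RA cells), chr11:96059453-96068082 (score 198.9; 42.1 and 33.2 CPM) and chr11:96109803-96118712 (score 176.9; 32.4 and 21.3 CPM), all on the Hoxb13 side. The longest one, chr11:96205064-96218454 (13390 bp; 36.7 and 32.5 CPM), lay on the Hoxb1 side.

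**Figure D2:**
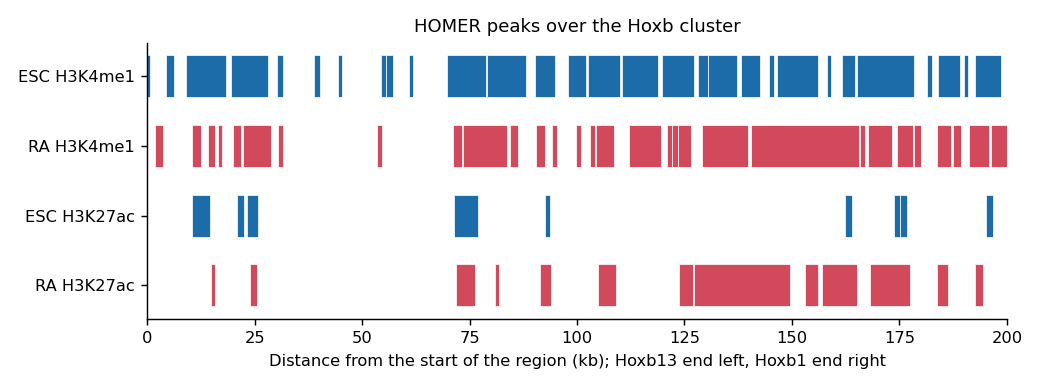
Peaks of each deposited list over the region, drawn to scale by distance from its start, with ESC peaks in blue and RA peaks in red; peaks are cut off at the ends of the region. The 13 RA H3K27ac peaks cover 32.5% of the region, most of it on the Hoxb1 side, and the 9 ESC H3K27ac peaks 10.6%.

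The next question was how methylated the precipitated DNA was. Over all bins of the cluster, 5mC on H3K4me1 was 14.1% of CpG counts in ESCs (exact 95% binomial interval 13.7 to 14.5) and 33.8% in RA cells (33.1 to 34.5), a difference of 19.7 points. On H3K27ac it was 10.9% (10.1 to 11.8) and 15.8% (15.1 to 16.5), a difference of 4.84 points. The cluster was less methylated than most of the genome in both states, as the lower quartile of the 200-kb windows was 36.8% in ESCs and 50.2% in RA cells for H3K4me1 and 28.9% and 34.1% for H3K27ac. The gain on H3K4me1 was above the upper quartile of those windows (16.4 points, median 12.5) with all bins taken, but was 15.4 points over bins with 30 counts in both libraries. The gain on H3K27ac lay between the quartiles (-3.12 and 6.87 points, median 1.70). It differed by side, at 12.0 points on the Hoxb13 side (12.2% to 24.2%) and 4.14 points on the Hoxb1 side (9.64% to 13.8%).

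Counts were also split into methylated and unmethylated ones, in CPM of all counts of the library. Unmethylated H3K4me1 counts went from 382.9 to 245.3 CPM, 1.56-fold lower in RA cells, and methylated ones from 62.9 to 125.3 CPM, 1.99-fold higher. The whole H3K4me1 library went from 38.6% to 54.8% 5mC, and relative to the unmethylated counts of the library alone the log2 difference of unmethylated counts was -0.20. Over the whole cluster, H3K27ac counts were higher in both classes, from 140.3 to 258.4 CPM unmethylated and from 17.2 to 48.4 CPM methylated. By side, unmethylated H3K27ac counts went from 70.4 to 44.8 CPM on the Hoxb13 side and from 69.9 to 213.6 CPM on the Hoxb1 side. On the Hoxb1 side methylated H3K4me1 counts went from 30.9 to 81.8 CPM and on the Hoxb13 side from 32.0 to 43.5 CPM.

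Because the libraries covered different bins, 5mC was also taken over the 91 bins with at least 10 counts in each of the 4 ESC and RA libraries. There 5mC went from 4.50% to 20.6% on H3K4me1 and from 2.93% to 7.51% on H3K27ac. The 31 bins of the Hoxb13 side went from 3.78% to 23.0% on H3K4me1 and from 2.19% to 10.9% on H3K27ac. The 60 bins of the Hoxb1 side went from 4.88% to 19.4% on H3K4me1 and from 3.64% to 6.63% on H3K27ac. In the same bins, then, the RA H3K4me1 library was the most methylated of the 4 on both sides.

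**Figure D3:**
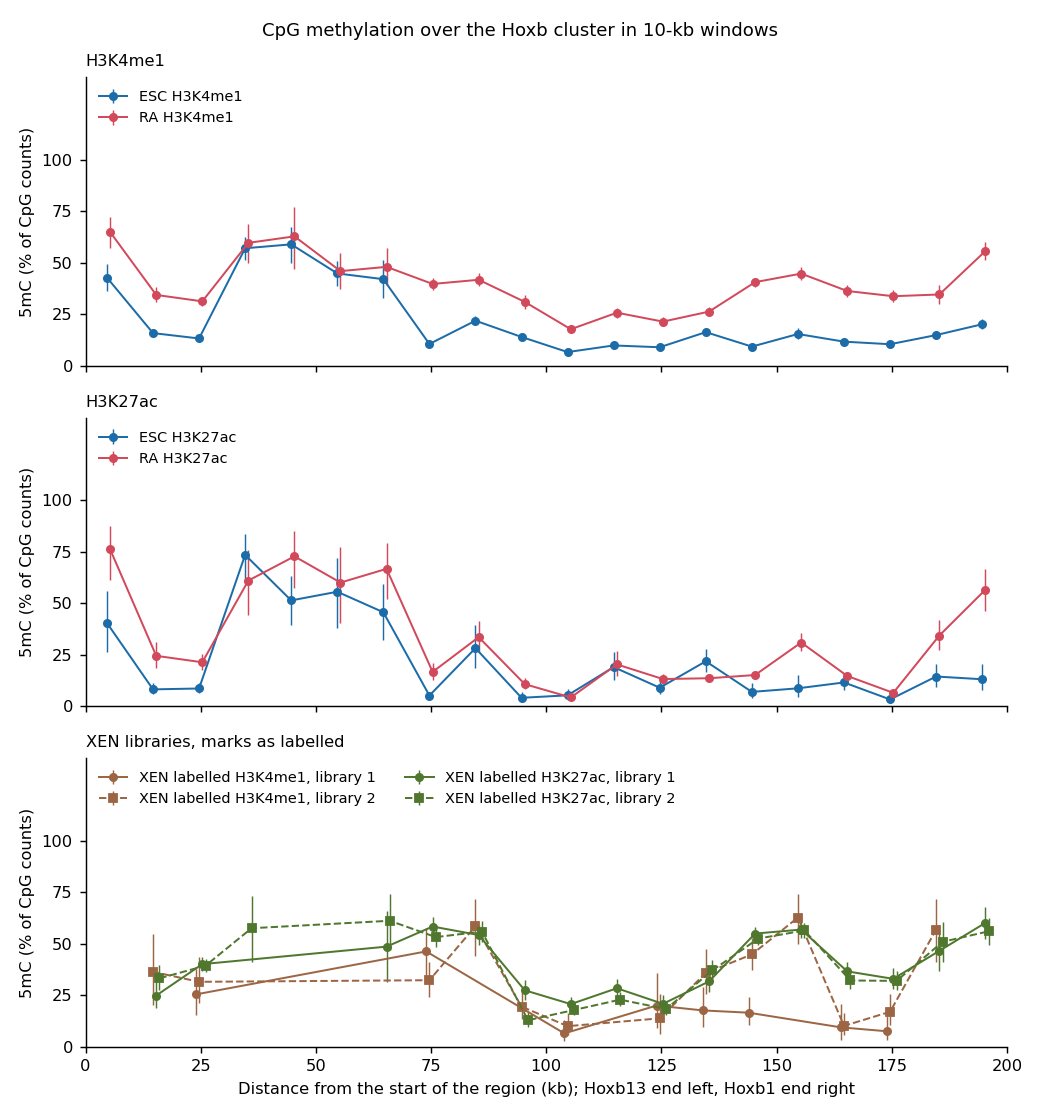
5mC as a percentage of CpG counts in the 10-kb windows that hold at least 30 counts in a library, with exact 95% binomial intervals, laid out as in the plot of CPM. RA (red) lies above ESC (blue) for H3K4me1 in every window, while in the window that starts 140 kb into the region RA H3K27ac is at 15.2% and RA H3K4me1 at 40.6%.

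By window, 5mC on H3K4me1 was higher in RA cells in 20 of 20 windows, against 84.2% of windows over the genome, though in the sparse windows of chr11:96070001-96110000 by only 1.11 to 5.98 points. In chr11:96180001-96190000, the window of largest H3K4me1 gain, 5mC on H3K4me1 went from 9.32% to 40.6% and on H3K27ac from 6.99% to 15.2%. In chr11:96170001-96180000, which gained most H3K27ac, it went from 16.3% to 26.3% on H3K4me1 and from 21.8% to 13.6% on H3K27ac. In chr11:96190001-96200000 both marks were more methylated in RA cells, from 15.4% to 44.7% on H3K4me1 and from 8.73% to 30.9% on H3K27ac. In chr11:96140001-96150000 5mC in ESCs and RA cells was 6.67% and 17.7% on H3K4me1 and 5.32% and 4.29% on H3K27ac. The window at the Hoxb1 end, chr11:96230001-96240000, had the largest gains on both marks, from 20.2% to 55.7% on H3K4me1 and from 13.1% to 56.6% on H3K27ac, the latter on 99 counts in RA cells.

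Single bins were tested where both libraries held at least 30 CpG counts and a peak of the mark in either state overlapped the bin. Of 154 such bins for H3K4me1, 75 were called more methylated in the RA library and 0 less (Fisher's exact test, two-sided, adjusted p under 0.05), against 47.8% and 1.84% of 204686 bins over the genome, and 79 of the 154 had an unadjusted p under 0.05. The share of called Hoxb bins was thus near the background. The median went from 6.15% to 22.4%, with a median difference of 12.6 points and differences from -10.9 to 54.9 points, against a median difference of 17.4 points over the genome. By position, 39 of 55 bins on the Hoxb13 side were called and 36 of 99 on the Hoxb1 side, with median differences of 19.7 and 8.15 points. Pooled over all bins of a side, with no minimum count or peak, the H3K4me1 gains were 19.2 points on the Hoxb13 side (18.2% to 37.5%) and 20.7 on the Hoxb1 side (11.4% to 32.1%).

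Of the 8 called bins with the largest H3K4me1 differences, 6 lay on the Hoxb13 side. The bin chr11:96065601-96065800 went from 13.5% of 207 counts to 68.4% of 38 (Fisher's exact test, Benjamini-Hochberg adjusted p = 4.17e-10), chr11:96057201-96057400 from 9.90% to 61.4%, and chr11:96063801-96064000 from 10.6% of 47 to 61.8% of 34. The next 3 lay inside the strongest ESC H3K27ac peak, at chr11:96114001-96114200 (6.15% to 54.9%), chr11:96113801-96114000 (5.66% to 52.9%) and chr11:96115401-96115600 (20.8% to 66.0%). On the Hoxb1 side were chr11:96157001-96157200 (5.36% to 50.0%) and chr11:96193601-96193800 (1.47% of 68 counts to 46.1% of 76). Together these 8 bins held 1.47% to 20.8% in ESCs and 46.1% to 68.4% in RA cells.

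For H3K27ac, 4 of 21 bins were called more methylated in the RA library and 0 less, against 13.8% and 1.06% of 81132 bins, and 6 had an unadjusted p under 0.05. The medians were 0% in ESCs and 5.17% in RA cells, and all 4 called bins lay on the Hoxb13 side, which held 10 of the 21. They were chr11:96064401-96064600 (0 of 60 counts, exact upper bound 5.96%, to 26.9% of 52), chr11:96113801-96114000 (0 of 68, upper bound 5.28%, to 17.4% of 46), chr11:96064601-96064800 (0 of 77, upper bound 4.68%, to 15.3% of 59) and chr11:96113201-96113400 (0.680% of 147 to 15.2% of 33). Both loci were H3K27ac peaks in each state. With at least 60 counts required, 0 of 6 bins were called (7.36% over the genome), and with a difference over 20 points also required 1 of 21 was (10.2%). The adjusted p of the 4 bins ran from 0.000125 to 0.00770 in Fisher's exact test.

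**Figure D4:**
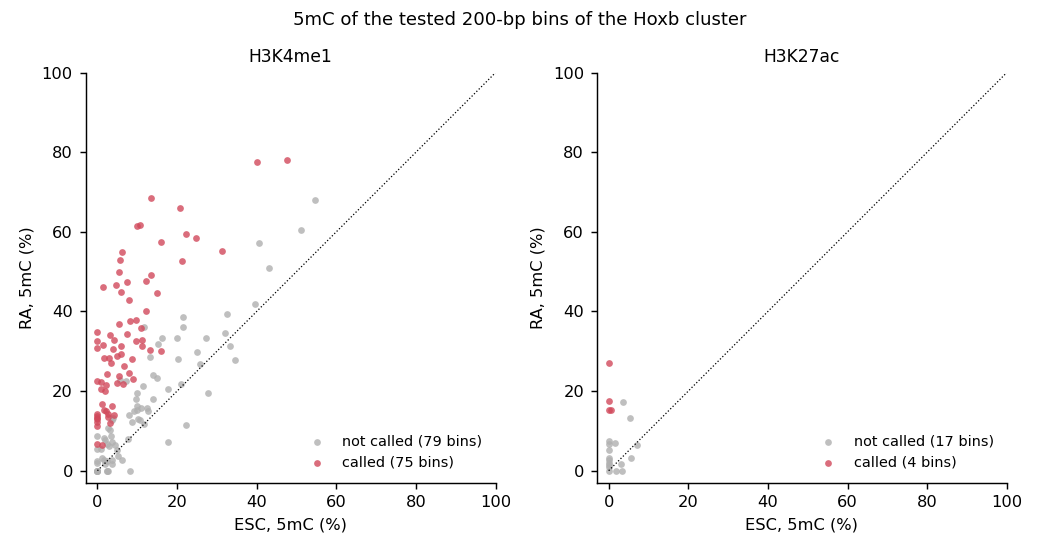
5mC of each tested 200-bp bin in the ESC library (x axis, %) and the RA library (y axis, %), for 154 H3K4me1 and 21 H3K27ac bins, with called bins in red and equal levels on the dotted line. The 75 called H3K4me1 bins all lie above the line, and the H3K27ac bins stay below 30% in both states.

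Comparing the marks within a state asks whether the same bin was equally methylated on both. In ESCs no difference was detectable at this depth. Of 28 bins covered and in peaks of both marks, 0 were called by Fisher's exact test in either direction, against 0.0692% and 0.00973% of 92471 bins, and 0 had an unadjusted p under 0.05. The differences there ran from -4.46 to 5.66 points, and 0 bins passed 20 points, against 1.36% higher on H3K4me1 and 1.03% higher on H3K27ac over the genome. In RA cells, 6 of 56 bins were called more methylated on H3K4me1 and 0 on H3K27ac, against 0.800% and 0.0126% of 95410 bins, and 18 had an unadjusted p under 0.05. The medians in RA cells were 13.7% on H3K4me1 and 6.42% on H3K27ac, and 9 bins differed by over 20 points, all higher on H3K4me1, against 4.64% of bins over the genome and 0.606% the other way.

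The largest of the called differences lay on the Hoxb1 side. The bin chr11:96215201-96215400 held 53.3% of 30 H3K4me1 counts and 6.45% of 31 H3K27ac counts (Fisher's exact test, adjusted p = 0.0171). The bins beside it, chr11:96215001-96215200 (29.2% and 3.85%) and chr11:96214801-96215000 (28.8% and 5.88%), lay with it inside the RA H3K27ac peak chr11:96208064-96217369. On the Hoxb13 side chr11:96113801-96114000 held 52.9% and 17.4%. In the longest RA H3K27ac peak chr11:96175801-96176000 held 33.3% of 195 counts and 15.5% of 155.

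Bins under 20% 5mC, counted as unmethylated, made up 79.4% of the 291 bins with at least 30 counts in the ESC H3K4me1 library and 35.6% of 202 in the RA library. Over the genome these shares were 35.1% and 16.9%. On H3K27ac they were 100% of 36 bins in ESCs and 93.2% of 88 in RA cells, against 81.8% and 61.6% over the genome. In the XEN libraries labelled H3K27ac they were 39.7% of 63 and 41.6% of 77 bins, against 11.3% over the genome in each, and those labelled H3K4me1 had 2 bins each with at least 30 counts. The longest runs of such bins on ESC H3K4me1 were chr11:96145401-96148800 (3400 bp, 2.36% of 1269 counts), chr11:96179001-96182200 and chr11:96213201-96216400 (3200 bp each), all on the Hoxb1 side. In RA cells those stretches held 13.1%, 17.8% and 20.6% on H3K4me1 and 3.11%, 5.02% and 2.74% on H3K27ac.

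Of the longest runs on RA H3K27ac, chr11:96179001-96182000 (3000 bp, 2.40%) and chr11:96213201-96216200 (3000 bp, 2.56%) overlapped runs of ESC H3K4me1 named above, while chr11:96172801-96174400 (1600 bp, 6.65%) overlapped none of them. On RA H3K4me1 they were shorter: chr11:96144601-96146200 (1600 bp, 9.91%), chr11:96155601-96157000 (1400 bp, 5.07%) and chr11:96164401-96165800 (1400 bp, 3.17%). On ESC H3K27ac they lay on the Hoxb13 side, at chr11:96112201-96114200 (2000 bp, 1.12%), chr11:96064001-96065200 (1200 bp, 2.77%) and chr11:96051201-96052200 (1000 bp, 1.52%). In RA cells H3K4me1 held 33.8%, 17.5% and 27.4% 5mC over these 3 runs.

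Bins were grouped by H3K27ac peak to see how methylation went with acetylation. The peaks were called on the H3K27ac libraries, so the H3K27ac counts of a group follow from its definition, and these counts and the 5mC read on them are given as a description. The 275 bins in RA peaks alone went from 40.2 to 168.9 CPM of H3K27ac, and 5mC there went from 12.2% to 32.9% on H3K4me1 and from 11% to 15.5% on H3K27ac. The 64 bins in peaks of both states were the least methylated, at 5.0% and 24.4% on H3K4me1 and 2.69% and 6.78% on H3K27ac. The 51 bins in ESC peaks alone went from 18.1 to 4.55 CPM of H3K27ac, and their 5mC on H3K4me1 from 10.6% to 39.3%. RA H3K27ac held only 147 counts there, those left where no RA peak was called, and its 5mC is not compared. The 610 bins in no H3K27ac peak went from 19.7% to 37.8% on H3K4me1 and from 26.2% to 30.6% on H3K27ac.

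Of the H3K4me1 bins tested between the states, 11 of 11 in ESC peaks alone were called more methylated in RA cells, against 56.2% of such bins over the genome, with a median of 4.76% in ESCs and 36.8% in RA cells. In peaks of both states 19 of 30 were called (52.1% over the genome), in RA peaks alone 23 of 63 (33.0%), and in no H3K27ac peak 22 of 50 (34.7%), with median differences of 14.6, 6.36 and 14.2 points. The median difference of the 11 bins in ESC peaks alone was 31.5 points. Not all of these bins lay in an ESC peak that was absent from RA cells. Of the 51 bins, 12 were edges of an ESC peak that an RA peak still overlapped in part, and 6 of the 11 tested bins were among them, with a median difference of 30.5 points against 34.8 in the other 5. These groups differ in depth and position, and their differences were not tested.

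**Figure D5:**
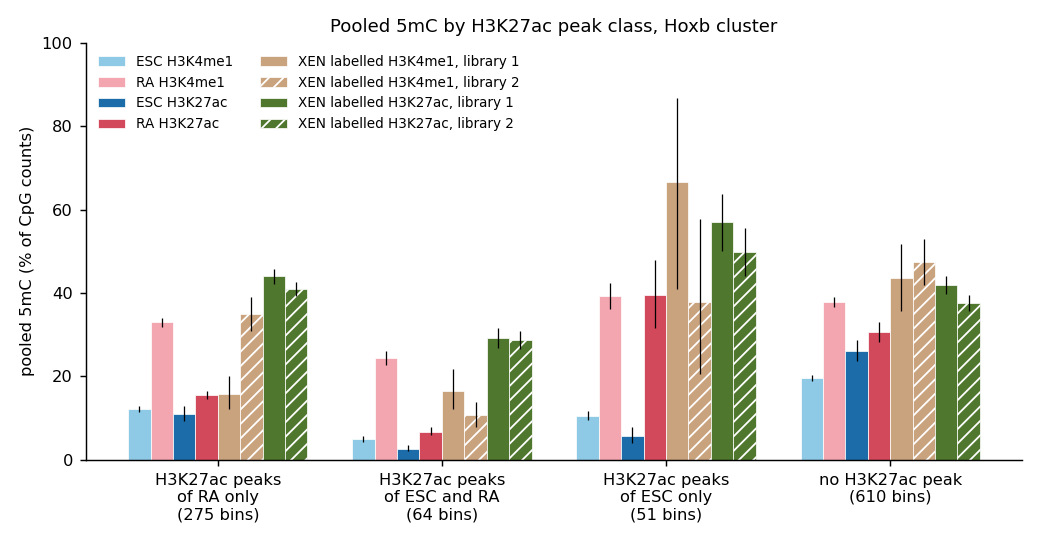
Pooled 5mC (% of CpG counts, bars, with exact 95% binomial intervals) of the bins grouped by H3K27ac peaks of ESC and RA, in the 8 libraries, with the second XEN library of each label hatched. In the 51 bins of ESC peaks alone, H3K4me1 holds 10.6% in ESC and 39.3% in RA, and the RA H3K27ac bar rests on 147 counts; the groups were set by the H3K27ac libraries, so their H3K27ac bars are a description.

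XEN cells had also been given retinoic acid, at a lower dose, for longer and with Activin A. Over the cluster the XEN libraries labelled H3K27ac held 290.1 and 254.4 CPM and those labelled H3K4me1 63.1 and 85.4 CPM. In chr11:96170001-96180000, where RA H3K27ac was highest at 46.2 CPM, the XEN libraries labelled H3K4me1 held 5.60 and 5.16 CPM and those labelled H3K27ac 13.3 and 12.4 CPM. In chr11:96180001-96190000, the XEN libraries labelled H3K27ac held 39.9 and 33.4 CPM, near the 43.6 CPM of RA H3K4me1 and the 41.4 CPM of RA H3K27ac, and those labelled H3K4me1 10.46 and 10.38 CPM. Under either assignment of marks, then, the first of these windows held less of both marks in XEN than in RA cells. XEN tables list no bin under 4 counts, and the part of that floor in the differences was not tested.

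Pooled 5mC in XEN was 22.9% and 30.3% in the libraries labelled H3K4me1 (26.6% ± 5.20, SD, n = 2) and 40.6% and 37.6% in those labelled H3K27ac (39.1% ± 2.09, SD, n = 2). The groups did not overlap, and the difference of -12.5 points (H3K4me1 minus H3K27ac, as labelled) had p = 0.333 in an exact two-sided permutation test, the smallest p that 2 libraries against 2 allow. Over all bins of the genome the groups did not overlap either. There the libraries labelled H3K4me1 held 47.9% and 49.2% 5mC and those labelled H3K27ac 61.5% and 61.5%, so the difference is not particular to the cluster. Over the ESC and RA bins with at least 4 counts, 5mC was 13.6% and 33.4% on H3K4me1 and 7.72% and 14.2% on H3K27ac. The labels do not say whether the 2 libraries of a mark came from separate cultures, so their spread may be technical.

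No bin of the cluster held 30 counts in all 4 XEN libraries, so the test between XEN marks (edgeR's quasi-likelihood test, 1 term for methylation by mark) gave no value at that depth, while 0.0137% and 1.27% of 14551 bins over the genome were called higher in the libraries labelled H3K4me1 and H3K27ac. At 20 counts, 3 bins could be tested and 1 was called, chr11:96203201-96203400, with 0 of 21 and 0 of 35 counts methylated in the libraries labelled H3K4me1 and 13.2% of 38 and 23.5% of 51 in those labelled H3K27ac (edgeR adjusted p = 0.0384, against 0.791% of 39215 bins called in this direction and 0.0153% in the other). This call rests on all 4 libraries. Without any 1 of them a mark keeps 1 library, its spread comes from the other mark alone, and no call is read. The other 2 bins, chr11:96064601-96064800 (13.0% to 16.0% in all 4 libraries) and chr11:96214401-96214600 (0% to 3.45%), had adjusted p of 0.957 and 0.721 from edgeR.

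Set against RA cells with the marks as labelled, no bin held 30 counts in both XEN libraries labelled H3K4me1, where 1.09% and 1.25% of 18770 bins over the genome were called higher and lower in XEN. For H3K27ac as labelled, 8 of 26 bins were called more methylated in both XEN libraries and 0 less (Fisher's exact test, adjusted p under 0.05 in each), against 18.8% and 0.126% of 64174 bins. With the second XEN library alone 19 of 37 bins were called higher, against 26.1% over the genome by that rule, and with the first alone 16 of 34, against 25.7%. With the marks exchanged, the XEN libraries labelled H3K27ac were set against RA H3K4me1, and 5 of 41 bins were called higher and 0 lower, against 7.20% and 0.193% of 148291 bins. The exchanged H3K27ac comparison had 0 testable bins in the cluster, with 0.863% and 0.0639% of 37547 called over the genome. For the exchanged H3K4me1 comparison the medians were 15.7% in RA H3K4me1 and 29.2% and 25.0% in the XEN libraries. All the called bins were more methylated in XEN. Both assignments rest here on the same XEN libraries, those labelled H3K27ac, so they are not separate checks. The libraries labelled H3K4me1 had 0 testable bins in the cluster either way.

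Of the bins called in both ways, chr11:96187401-96187600 held 65.9% of 91 and 72.3% of 65 counts in the XEN libraries labelled H3K27ac, 31.3% of 262 in RA H3K4me1 and 17.3% of 127 in RA H3K27ac. The bin chr11:96182001-96182200 held 71.8% and 69.6% in XEN, 30.3% in RA H3K4me1 and 21.3% in RA H3K27ac. The third, chr11:96179201-96179400, held 32.8% and 44.4% in XEN and 6.80% and 6.38% in the RA libraries. All 3 lie inside the longest RA H3K27ac peak. Called against RA H3K27ac alone were chr11:96214801-96215000, chr11:96202201-96202400, chr11:96214201-96214400, chr11:96194001-96194200 and chr11:96181401-96181600, which held 14.5% to 62.5% in XEN and 1.69% to 6.25% in RA H3K27ac. Called against RA H3K4me1 alone were chr11:96065201-96065400 (63.3% and 62.2% in XEN, 19.5% in RA) and chr11:96195001-96195200 (54.8% and 59.5% in XEN, 23.9% in RA).

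Against ESCs, 6 of 15 bins were called more methylated in the XEN libraries labelled H3K27ac than in ESC H3K27ac, and 0 less, against 72.7% and 0.349% of 29246 bins. With the second XEN library alone 12 of 20 were called higher, against 72.4% over the genome by that rule, and with the first alone 9 of 16, against 73.7%. With the marks exchanged, 25 of 43 were called above ESC H3K4me1 and 0 below, against 65.1% and 1.63% of 95574 bins. Both shares of higher bins, at this minimum of 30 counts, lie below the background. The other pairings had 0 testable bins in the cluster, and over the genome 28.0% and 5.13% of 14264 bins (H3K4me1 as labelled) and 9.10% and 0.608% of 28449 bins (H3K27ac exchanged) were called. The ESC medians of these bins were 0% and 2.68%, and the XEN medians 14.4% and 13.0% in the former and 23.8% and 19.7% in the latter. In the 275 bins of RA H3K27ac peaks alone, XEN libraries labelled H3K27ac held 44.0% and 41.0% 5mC, and in the 64 bins of peaks of both states 29.1% and 28.7%. The XEN libraries labelled H3K4me1 held 15.9% and 34.9% in the former and 16.6% and 10.7% in the latter.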

How the data were processed

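CpG counts of 8 ChIP-BS-seq libraries were used. Per the study's methods and processing notes, the authors aligned reads to mm9 with Bismark and Bowtie in single-ended mode (Bowtie2 is also listed for XEN), removed reads with mixed CpGs, counted methylated and unmethylated CpGs in 200-bp bins and called peaks with HOMER, whose deposited score only ranked peaks within a list here. Versions are not given in the sources used here, nor whether an ESC or RA table pools repeat experiments. Bins of chromosome 1 ended at 197094000 to 197192400, as mm9 allows. The deposited count columns were taken as methylated or unmethylated from the mitochondrial genome, which is nearly unmethylated: methylated counts come first in ESC and RA and second in XEN. No molecular identifiers are mentioned, so counts are not independent molecules. Input and H3K36me libraries were not analysed here, and the single-cell tables were not used, since their transcript identifiers were not paired with gene symbols. Cell type markers were therefore not checked.

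CPM are CpG counts per 1000000 of a library. Shares have exact (Clopper-Pearson) binomial and CPM Poisson 95% intervals, for counting error only; fold intervals use a normal approximation on the log scale. Bins with at least 30 counts in both libraries were tested with Fisher's exact test, adjusted (Benjamini-Hochberg) over all such bins of the genome; between ESC, RA and their marks a peak had to overlap by at least 1 bp. These tests compare 1 library with 1 library. XEN marks were tested with edgeR 4.0.16 (R 4.3.3), other steps with Python 3.11.15, numpy 2.4.6 and scipy 1.17.1. Both tests were first tested on simulated counts. Named were up to 8 called bins per direction between states and 5 between marks, the 3 highest peaks and the longest of a list, the 3 windows of largest rise and fall, and the 3 longest runs under 20% 5mC (gaps of at most 2 uncovered bins). The limit of 20% 5mC is the one the study's text uses for unmethylated regions. The region, lists and tests were chosen with earlier results of these data known. Alternatives were other count minimums, 5mC limits, scalings, region ends, exchanged XEN marks and left-out libraries.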

Additional observations from a re-analysis of the deposited data

How the results depend on the processing

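Of 119 recomputed values, 86 kept their direction and stayed within the spread or 1.5 times the main value. With at least 60 counts, 34 of 58 H3K4me1 bins and 0 of 6 H3K27ac bins were called higher in RA than in ESC (genome 61.0% and 7.36%), and with 20 points also required 47 of 154 and 1 of 21 (genome 41.4% and 10.2%); with at least 20 counts, 1 of 249 H3K4me1 and 1 of 42 H3K27ac bins were called lower (genome 1.63% and 1.11%). For XEN above RA in H3K27ac as labelled, 15 of 58 bins were called with at least 20 counts and 4 of 6 with at least 60 (genome 11.4% and 34.6%), and without 1 of the 2 XEN libraries 16 of 34 to 19 of 37 (genome 25.7% and 26.1%); XEN above ESC gave 18 of 37 with at least 20 counts (genome 62.4%), 4 of 4 with at least 60 (genome 87.8%), and 9 of 16 to 12 of 20 without 1 library (genome 73.7% and 72.4%). For H3K4me1, exchanged XEN marks gave 5 of 41 bins above RA and 25 of 43 above ESC (genome 7.20% and 65.1%), where the labels gave none testable, and at least 20 counts gave 1 of 3 above ESC as labelled (genome 28.4%). The share of bins under 20% 5mC was 71.7% and 88.1% for ESC H3K4me1 and 82.9% for RA H3K27ac with other count minimums (20, 60 and 20), and 56.5% for the second XEN library labelled H3K27ac (60). With a limit of 10% 5mC it was 62.5% and 17.3% for ESC and RA H3K4me1, 77.3% for RA H3K27ac and 23.8% and 20.8% for the XEN libraries labelled H3K27ac.

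The H3K4me1 gain was 15.4 points over bins with 30 counts in both libraries and 16.1 over the 91 shared bins, and the H3K27ac gain 7.08 points in its peaks. Scaled to the library's counts outside peaks, the log2 changes were -0.34 (H3K4me1) and 1.13 (H3K27ac), and -0.20 for unmethylated H3K4me1 counts relative to the library's unmethylated counts. The XEN difference became 12.5 points with the marks exchanged, by construction, and ran from -16.2 to -8.82 points without 1 library. The XEN replicate numbers are shared but not said to pair libraries. With the replicate block the pooled difference was -12.5 points (p = 0.5, exact sign-flip permutation test, the smallest p that 2 pairs allow). With at least 20 counts the block left 1 bin called, as without it. That block, and leaving out libraries at 20 counts, were chosen after seeing the data, as were the shared bins. With 30 counts, the pooled XEN difference had no shared bins, and with 30 or 60, exchanged marks, a block or summed counts could not be fitted to any Hoxb bin between XEN marks, nor could the exchanged H3K27ac comparisons. Bins of the cluster with at least 30 counts numbered 291 and 202 on H3K4me1, 36 and 88 on H3K27ac and 2 to 77 in the XEN libraries. Where no value shows it, the cause was not tested.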
